A study of Mus musculus with 12 samples.

Results

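The autophagy core genes were 40 mouse genes that encode the machinery of autophagy, taken by symbol from GENCODE M21 (GRCm38/mm10), where all 40 were matched. Each peak of 6 BMAL1-ChIP-seq peak lists was assigned to the gene whose protein-coding start site lay nearest to the centre of the peak. By this rule 93 of 35822 peaks belonged to the 40 genes, out of 21864 protein-coding genes with a start site. Merging overlapping peaks gave 39 regions for these genes out of 16818 regions in all.

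Autophagy encloses cytoplasmic cargo in a double membrane, the autophagosome, and delivers it to the lysosome for degradation. The ULK1 kinase complex starts the process, a lipid kinase complex built on BECN1 and PIK3C3 marks the membrane, ATG2 and ATG9 proteins supply lipid, and conjugation enzymes attach proteins of the ATG8 family (LC3 and GABARAP) to the membrane, where cargo receptors bind them. BMAL1 is a circadian clock transcription factor that binds, with CLOCK, the E-box CACGTG, and TFEB, a regulator of lysosomal and autophagy genes, binds a related element that can hold the same core.

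The study compared where BMAL1 bound in primary mouse adult fibroblasts (MAFs) that were senescent or not, which its methods describe as grown from the ears of female C57BL6/J mice. The senescent group received 20 Gy of X-rays and the control group a sham exposure. The methods describe weeks of further culture after irradiation, so time since exposure is part of the senescent condition. All cells were cultured at 3% oxygen, treated with 100 nM dexamethasone for 2 h to synchronize their clocks and collected 12 h later, with 3 libraries per group. The labels do not say whether the replicates came from separate animals, so p-values measure the spread between these samples only. The lists held 2794, 3349 and 10601 peaks in control libraries 1 to 3 and 4220, 9805 and 5053 peaks in senescent libraries 1 to 3. Sequencing depth is unknown from peak lists, and a gene without a peak is described as not called, since BMAL1 may still have bound there below the threshold of that list. Peak lists hold no marker levels, so the cell type and the senescent state could not be checked here, and the share of cells bound cannot be told apart from the binding per cell.

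The sequences below carry the E-boxes in peaks of the autophagy genes, on the forward strand of GRCm38 with the E-box CACGTG in capitals. They are shown because all 4 regions of these genes called in every library held an E-box, and those of *Atg14*, *Wipi1*, *Calcoco1* and *Atg3* were added after the values were seen.
Bnip3, chr7:138909597-138909626: gggagcgtgtggCACGTGcggcgcgtgcgc
Uvrag, chr7:99141462-99141491: ggtatgtcgtgtCACGTGcagaagtctgga
Gabarap, chr11:69991008-69991037: ttcgccacccgcCACGTGattctccgccct
Atg3, chr16:45158723-45158775: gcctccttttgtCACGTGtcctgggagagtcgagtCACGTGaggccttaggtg
Gabarapl2, chr8:111939875-111939904: agatcatataagCACGTGgtcaggtggccg
Atg14, chr14:47568418-47568447: ctcagggccagtCACGTGggattttgtttt
Wipi1, chr11:109611974-109612003: aaggcagcaggcCACGTGgtggtgttttca
Calcoco1, chr15:102723968-102723997: gctcagtgaaggCACGTGgcaacgggaagc
The E-box began 108 bp upstream of a start site in *Bnip3*, 338 bp in *Uvrag*, 123 bp in *Gabarap*, 816 bp in *Gabarapl2*, 559 bp in *Wipi1* and 1807 bp in *Calcoco1*, and 1 bp upstream in *Atg14*. The *Atg3* sequence lies between the start sites of *Atg3* and the divergent gene *Slc35a5*, which are 79 bp apart, and holds 2 E-boxes separated by 17 bp. The E-box nearer to *Atg3* reads TCACGTGA, the form with the flanks of the TFEB element.

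To ask how often BMAL1 peaks were called at autophagy genes in each group, the genes with a peak were counted per library. In the control libraries 6, 9 and 16 of the 40 genes had a peak (15.0%, 22.5% and 40%), against 9.32%, 10.8% and 25.3% of all protein-coding genes in the same lists. In the senescent libraries 9, 20 and 9 genes had a peak (22.5%, 50% and 22.5%), against 14.4%, 26.5% and 16.6% of all genes. With whole lists the share of autophagy genes was above that of all genes in each of the 6 libraries, and the longest lists, control 3 and senescent 2, held the most. The stretch of genome nearest to a gene had a median of 56.6 kb for the autophagy genes and 47.3 kb for all genes, and its part in the counts was not tested. The groups overlapped, with a mean of 10.3 ± 5.13 genes for control and of 12.7 ± 6.35 genes for senescent libraries (SD, n = 3), a difference of 2.33 genes that is smaller than either SD. With each list cut to its best 2794 peaks the counts were 6, 8 and 5 in control libraries, against 9.32%, 9.43% and 9.85% of all genes, and 8, 7 and 3 in senescent libraries, against 10.3% of all genes in each. The difference between the groups then turned to -0.333, and in senescent library 3 the share of autophagy genes (7.5%) fell below that of all genes.

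Peaks near the start site, with a centre within 1000 bp of it and called promoter peaks here, were counted in the same way. They belonged to 4, 5 and 10 autophagy genes in control libraries, against 3.72%, 4.52% and 12.9% of all genes. In senescent libraries they belonged to 7, 13 and 6 autophagy genes, against 7.15%, 16.7% and 8.38% of all genes. As percentages of the 40 genes the means were 15.8 ± 8.04% in control and 21.7 ± 9.46% in senescent libraries, and the groups again overlapped.

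**Figure D1:**
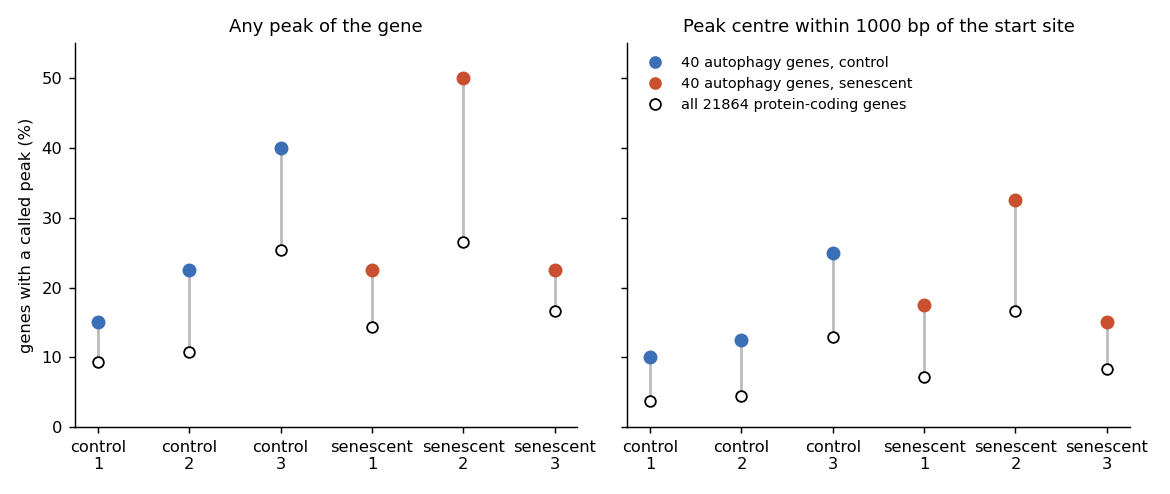
Percentage of genes with a called peak (y axis) in each BMAL1-ChIP-seq library (x axis), for any peak of the gene (left) and for a peak centre within 1000 bp of the start site (right). Filled points are the 40 autophagy genes and open points all 21864 protein-coding genes; with these whole lists the filled point lies above the open point in every library, from 15.0% against 9.32% in control 1 to 50% against 26.5% in senescent 2.

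Over the 6 libraries together, 24 of the 40 genes (60.0%) had a peak in at least 1 library, against 36.4% of all genes, and 16 genes (40%) had a promoter peak, against 21.7%. *Bnip3*, *Uvrag* and *Gabarap* had a peak in all 6 libraries (7.5%, against 5.14% of all genes), each at its promoter, where 2.17% of all genes did. *Atg3*, *Gabarapl1* and *Atg2a* were called in at least 2 senescent and 0 control libraries (background 3.42%), and *Atg5* in at least 2 control and 0 senescent libraries (background 1.64%). Counting promoter peaks alone, this left *Atg3* in the senescent direction (background 2.12%) and 0 genes in the control direction (background 0.361%). The counts rest on 1 to 3 genes each. Under this rule *Atg3* and *Gabarapl1* were called in 3 senescent and 0 control libraries, as were 1.48% of all genes. The lack of a control call at *Atg3* rests on the assignment of peaks at a shared promoter. That region had a peak in all 6 libraries, as described with the conjugation enzymes below.

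Peaks were also ranked by score within each list, with 1 the best, since scores are not comparable between libraries. With lists cut to the same length, 14 of the 40 genes could be tested among 4474 genes with a peak, using an exact two-sided permutation test. The smallest p that 3 against 3 libraries allow is 0.1, so no gene could fall below the usual threshold (0 of 4474 genes did, before or after adjustment), and the smallest Benjamini-Hochberg adjusted p was 0.459. *Atg3* ranked better in every senescent library and *Gabarap* in every control library, against a background of 12.8% of genes in the senescent and 8.99% in the control direction. Both are described with their regions below.

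**Figure D2:**
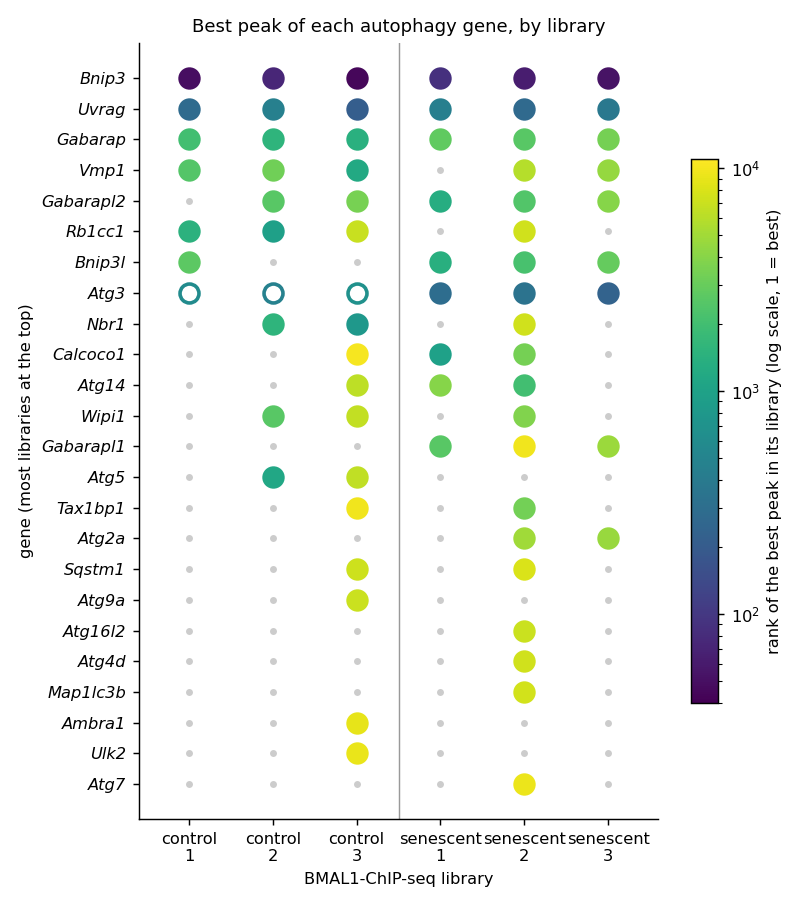
Rank of the best peak (colour, log scale, 1 is best) of the 24 autophagy genes with a peak, by library. Small grey dots mark genes not called, and open circles mark the Atg3 region in control libraries, where a peak was called but its centre lay nearer to Slc35a5; Bnip3, with ranks of 44 to 88, is the darkest line, and the 7 genes called once were called in control 3 or senescent 2.

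For the counts by role that follow, 36.4% of all genes had a peak in at least 1 library and 21.7% a promoter peak. Each role holds 5 to 11 genes, too few to compare roles with these shares. Among the 5 genes of the initiation kinase complex, 2 had a peak and none had one within 1000 bp of the start site. *Rb1cc1*, which encodes the scaffold FIP200, had an intergenic region 65131 bp downstream of its start site (chr1:6279662-6280538). It ranked 1457.5, 958 and 6794.5 in the control libraries and 7308.5 in senescent library 2, and was not called in senescent libraries 1 and 3. The region held neither an E-box nor an AP-1 motif, and *Alkal1* was the next nearest gene at 79442 bp. *Ulk2*, a kinase related to *Ulk1*, had an intronic peak of rank 9077.5 in control library 3, near the end of that list. No peak was assigned to the kinase *Ulk1* or to the subunits *Atg13* and *Atg101*.

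Of the 6 genes of the lipid kinase complex, 3 had a peak and 2 a promoter peak. *Uvrag*, a subunit of the complex that acts in autophagosome maturation and endocytic traffic, had a promoter region on chr7:99141034-99141696 with the E-box shown above. It ranked 277, 450.5 and 208 in control and 444.5, 270 and 380 in senescent libraries. The groups overlapped, with mean ranks of 312 ± 125 and 365 ± 88.2 (difference 53.0, exact p = 0.8). An intronic *Uvrag* region 133992 bp into the gene (chr7:99006971-99007328) was called in control libraries 1 and 3 (ranks 2640 and 6601) and in all 3 senescent libraries (2263.5, 8101.5 and 2518). A region 10364 bp upstream of *Uvrag* was called in senescent libraries 1 and 2 only, with ranks of 2768.5 and 2341.5. Neither of these distant regions held an E-box.

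*Atg14*, which directs the lipid kinase complex to autophagosome formation, had a promoter region with an E-box at the start site itself (chr14:47568410-47568668). It ranked 6273 in control library 3, whose peak did not cover the E-box, and 3956 and 2005 in senescent libraries 1 and 2. It was not called in the other 3 libraries. After cutting the lists only senescent library 2 kept this peak, so the groups overlapped (p = 1 by the exact permutation test). *Ambra1*, a regulator of the complex, had an intronic peak of rank 8836.5 in control library 3. *Becn1*, *Pik3c3* and *Pik3r4*, the core of the complex, had no assigned peak.

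In the group of lipid transfer and scaffold proteins, 4 of 6 genes had a peak and 3 a promoter peak. *Wipi1*, which binds the lipid made by the kinase complex, had a promoter region with an E-box (chr11:109611487-109612012). It ranked 2533.5 and 6601 in control libraries 2 and 3 and 3763 in senescent library 2. Only the peak of senescent library 2 covered the E-box. *Vmp1*, a membrane protein of the endoplasmic reticulum needed for autophagosome formation, had 4 regions, all in its introns and 30232 to 59168 bp from the start site. The region at 59168 bp (chr11:86624345-86624992) was called in the 3 control libraries (ranks 2447.5, 3261 and 1191) and in senescent library 3 (4493). Each of the other 3 *Vmp1* regions was called in 1 library, so that *Vmp1* had a peak in 5 libraries through 4 sites. Those 3 ranked 5635.5 and 3505.5 in control library 3 and 5868 in senescent library 2. The region at 59168 bp held no E-box and 1 AP-1 motif (TGACTCA or TGAGTCA), shown in capitals because AP-1 is the other motif the study named.
Vmp1, chr11:86624459-86624488: tggtttcactcTGACTCAcgcctgctcaaa
*Atg2a*, a lipid transfer protein, was called in 2 senescent libraries, but at different sites: 64 bp upstream of its start site in senescent library 2 (rank 4977.5) and 7041 bp downstream in senescent library 3 (rank 4597). Its senescent calls therefore do not repeat at one place. *Atg9a*, the membrane protein that seeds the autophagosome, had a promoter peak of rank 6968.5 in control library 3 in an intron of the neighbouring *Ankzf1*. No peak was assigned to *Atg2b* or *Wipi2*.

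Of the 11 genes of the conjugation machinery, 5 had a peak and 3 a promoter peak. *Atg3*, the E2-like enzyme that attaches ATG8 proteins to lipid, had best peaks of rank 291, 340.5 and 233 in the senescent libraries and none assigned in control. The merged region (chr16:45158384-45159096) nevertheless held a peak of every library, with control ranks of 592.5, 460 and 667.5. The centres of the control peaks lay 65, 79 and 140 bp upstream of the *Atg3* start site and 14, 0 and 61 bp from that of *Slc35a5*, a solute carrier gene, whereas the senescent centres lay 4, 7 and 16 bp from *Atg3*. Every one of the 6 peaks covered both E-boxes. The absence of *Atg3* from the control lists, and its gene-level rank difference (exact p = 0.1, adjusted p = 0.459), are thus set by which of 2 close start sites the centre fell nearer to. Senescent library 2 also had an intronic *Atg3* peak 475 bp downstream of the start site (rank 8330). Senescent library 3 had another at 865 bp (rank 3830.5). These peaks lay at different sites, and neither site was called in a control library.

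Ranked as a region, the *Atg3* and *Slc35a5* promoter had a mean rank of 573 ± 105 over the control and of 288 ± 53.8 over the senescent libraries (SD, n = 3). Every senescent library ranked it better than every control library. The exact permutation p was 0.1, the smallest possible, and the Benjamini-Hochberg adjusted p over 6619 regions was 0.577. Such a separation in the senescent direction was seen in 10.4% of those regions, and in 17.6% of the 1106 regions called in all 6 libraries. Of the 18 regions of autophagy genes tested, that of *Gabarap* was the only other whose groups did not overlap, in the control direction (6.96% of regions, and 18.2% of those called in all 6 libraries).

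**Figure D3:**
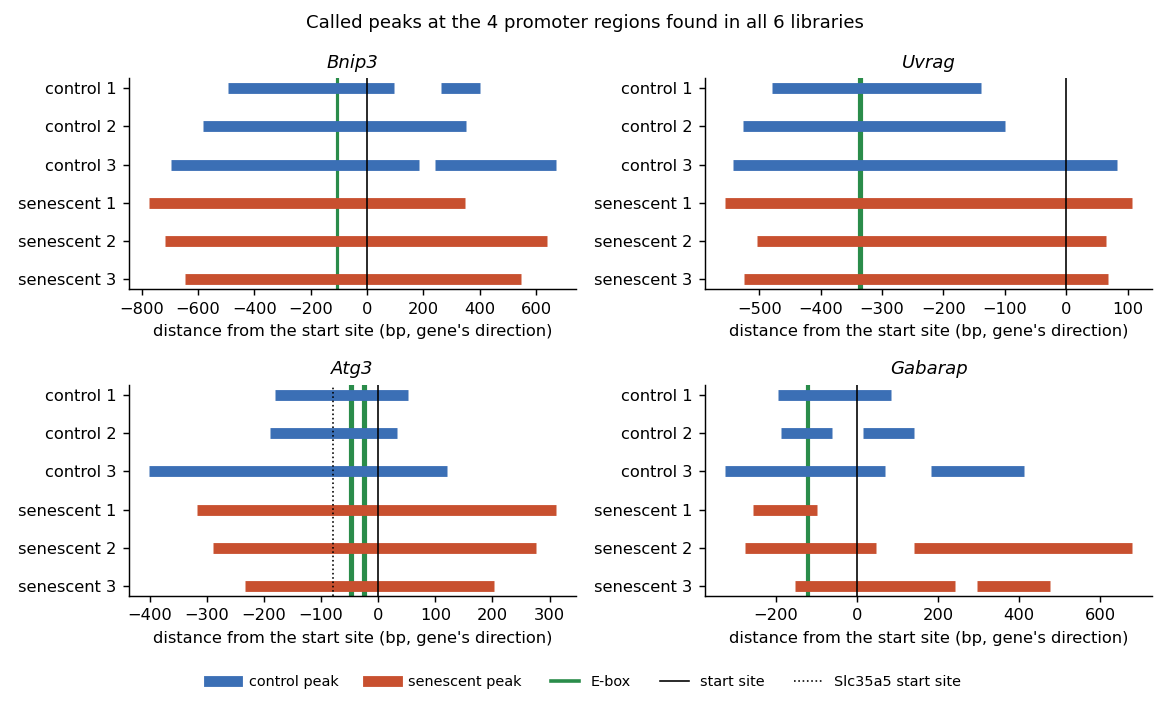
Extent of the called peaks in each library (y axis) by distance from the start site in bp (x axis) at Bnip3, Uvrag, Atg3 and Gabarap, with control peaks in blue, senescent peaks in red and E-boxes as green lines. Peaks of all 6 libraries cover an E-box in each gene, and at Atg3 they also span the Slc35a5 start site (dotted line, 79 bp upstream).

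*Atg5*, which joins *Atg12* in the conjugate that helps to lipidate ATG8 proteins, had an intergenic region 59571 bp upstream of its start site with ranks of 1126.5 and 6464 in control libraries 2 and 3. *Crybg1* lay at nearly the same distance, 59934 bp, and the region held neither motif. *Atg7*, the E1-like enzyme of both conjugation reactions, had an intronic peak of rank 9255 in senescent library 2. *Atg4d*, a protease that trims ATG8 proteins, and *Atg16l2*, a relative of the conjugation scaffold *Atg16l1*, had promoter peaks of rank 7273 and 7024 in the same library. These single calls all lay in the lower part of a list of 9805 peaks. *Atg4a*, *Atg4b*, *Atg4c*, *Atg10*, *Atg12* and *Atg16l1* had no assigned peak.

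Of the 5 genes of the ATG8 family, 4 had a peak. *Gabarap* was called at its promoter in all 6 libraries (chr11:69990818-69991822), with best ranks of 2025, 1538 and 1419.5 in control and 2768.5, 2535.5 and 3417 in senescent libraries. The best rank was lower in number, and thus better, in every control library. With the lists cut to 2794 peaks, senescent library 3 lost the peak and was placed at the end of the list, which limits the senescent mean and SD. The means were then 1661 ± 321 and 2699.7 ± 143 (exact p = 0.1, adjusted p = 0.459 over genes and 0.577 over regions). In control library 3 the best peak was not the one on the E-box, which ranked 3634.5 there, so that the groups overlapped when only the peaks covering the E-box were compared. They also overlapped with ranks as a percentage of the list (exact p = 0.7).

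*Gabarapl2* had a promoter region with an E-box (chr8:111939823-111940125) that ranked 7398 in control library 3 and 1338.5, 2382.5 and 3980 in the senescent libraries. It was thus called in every senescent library and in 1 control library, where its rank was the poorest. The peaks of control library 3 and senescent library 3 did not cover the E-box. With cut lists the groups overlapped, since senescent library 3 lost the peak (exact p = 0.4). A region 24367 bp downstream of its start site, with no E-box, was called in control libraries 2 and 3 (ranks 2533.5 and 3505.5) and in senescent library 2 (4820.5). *Gabarapl1* had an intronic region 1582 bp downstream of its start site (chr6:129534822-129535068) in the 3 senescent libraries alone, with ranks of 2579, 9789 and 4708.5 and no E-box, and 3.73% of all regions had this pattern of calls. The ranks in senescent libraries 2 and 3 lay beyond the best 2794 peaks, and with cut lists *Gabarapl1* was called in senescent library 1 only. *Map1lc3b*, which encodes the LC3B protein used as a marker of autophagosomes, had a promoter peak of rank 7479.5 in senescent library 2, and *Map1lc3a* had no peak.

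The 7 cargo receptor genes held the best-ranked region, and 6 of them had a peak. *Bnip3*, a receptor of mitophagy induced by hypoxia, ranked 49, 73 and 44 in control and 88, 63 and 53 in senescent libraries at its promoter (chr7:138908836-138910279). These were within the best 2.18% of every list. The groups overlapped, with mean ranks of 55.3 ± 15.5 and 68.0 ± 18.03 (exact p = 0.5). A *Bnip3* intronic region 2105 bp downstream of the start site held an AP-1 motif and no E-box, and ranked 1867.5 in control library 3 and 6610 in senescent library 2. Only the peak of control library 3 covered that motif. Further *Bnip3* peaks were each called in 1 library, 845 bp upstream in senescent library 2 (rank 4907) and 9831 bp upstream in control library 2 (rank 3319).

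*Bnip3l*, which encodes the related mitophagy receptor NIX, had a promoter region without an E-box (chr14:67008749-67009150). It ranked 2659.5 in control library 1 and 1385, 2155 and 2902.5 in the senescent libraries, and was not called in control libraries 2 and 3. With cut lists the groups overlapped (exact p = 0.4). *Calcoco1*, a receptor for the endoplasmic reticulum, had a region with an E-box 1796 bp upstream (chr15:102723881-102724086) that was called in senescent libraries 1 and 2 (ranks 981.5 and 3399). A different *Calcoco1* site, 195 bp upstream and without an E-box, was called in control library 3 with a rank of 10161.5, so the gene was not specific to a group by its own count.

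*Nbr1*, a receptor for ubiquitinated cargo, had a promoter region (chr11:101552560-101553166) of rank 1551 and 796.5 in control libraries 2 and 3 and 7287 in senescent library 2. Its centre lay 5 bp from an *Nbr1* start site and 984 bp from that of the divergent gene *Brca1*, and the region held no E-box. *Sqstm1*, which encodes the receptor p62, had a peak 649 bp downstream of a start site in control library 3 (rank 7204.5). Another *Sqstm1* peak, 2429 bp upstream and with an AP-1 motif, had rank 7921 in senescent library 2. *Tax1bp1* had peaks at 147893 bp in control library 3 and senescent library 2 (ranks 9727 and 3335) and at 111910 bp in senescent library 2 (6610), all in introns of the neighbouring *Jazf1*. *Optn* had no peak.

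**Figure D4:**
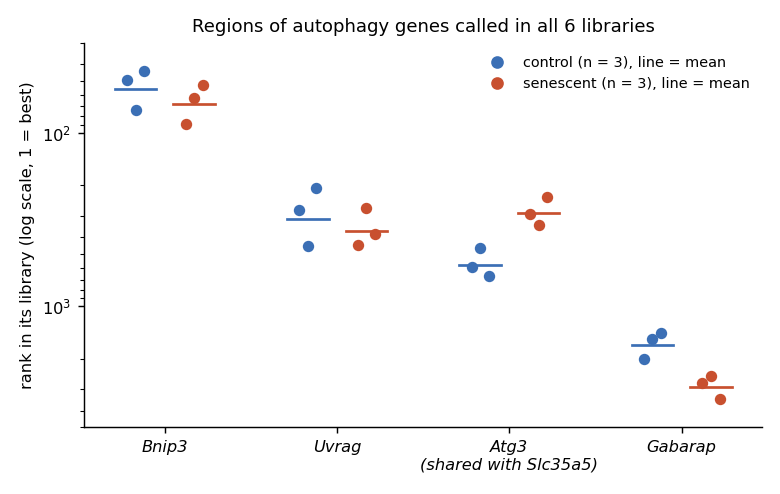
Rank in its library (y axis, log scale, best at the top) of the 4 regions of autophagy genes called in all 6 libraries, with 1 point per library and a line at the mean of the 3 libraries of a group. Control and senescent points are interleaved at Bnip3 and Uvrag and separate at Atg3 (senescent better) and Gabarap (control better).

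Since several autophagy genes share a promoter with a neighbour, calls were also made with rules added after the data were seen. When a gene counted as called in every library with a peak in one of its regions, 4 autophagy genes were called in all 6 libraries (background 5.32%), with *Atg3* joining *Bnip3*, *Uvrag* and *Gabarap*, *Gabarapl1* and *Atg2a* were left in the senescent direction (background 3.41%) and *Atg5* in the control direction (background 1.62%). When a peak counted for every start site within 1000 bp, 18 autophagy genes were called in at least 1 library (against 23.6% of all genes), the same 4 of them in all 6 libraries (background 2.47%). *Atg9a* then had a promoter peak in 4 libraries, *Atg2b* in 2 and *Atg4b* in 1. Under this rule 0 autophagy genes met the group criterion in either direction, against 2.25% of all genes in the senescent and 0.393% in the control direction.

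To see what the regions shared beyond their position, the E-box and AP-1 motifs were searched on both strands over the whole of each merged region. An E-box was found in 8 of the 39 regions of autophagy genes (20.5%), near the share of all regions (19.9%). By position, 7 of 19 promoter regions held one (36.8%, against 24.1% of all promoter regions), and 1 of 20 regions farther away did (5.0%, against 17.7%). By recurrence, 4 of the 39 regions (against 6.58% of all regions) were called in 6 libraries and all 4 held one, against 61.6% of all such regions, and 0 of the 20 regions called in 1 library (51.3% of the 39, against 55.7% of all regions) did, against 8.50%. The regions with an E-box between these ends were those of *Gabarapl2* (4 libraries), *Atg14* and *Wipi1* (3 each) and *Calcoco1* (2). These numbers count calls of the merged region. The E-box itself was covered only by peaks of senescent libraries 1 and 2 at *Gabarapl2*, *Atg14* and *Calcoco1*, and of senescent library 2 at *Wipi1*. The 4 regions called in 6 libraries were 663 to 1444 bp long and the 20 called in 1 library 103 to 405 bp, and the part of length in this pattern was not tested.

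**Figure D5:**
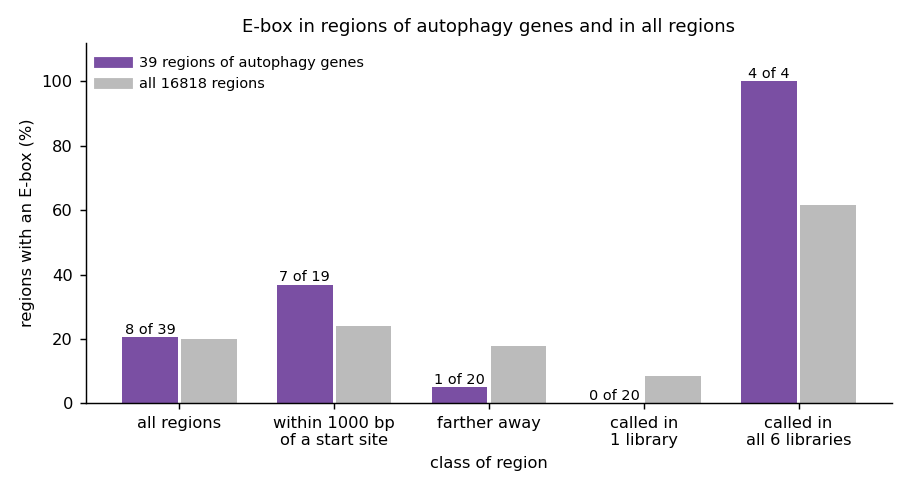
Percentage of merged regions holding an E-box (y axis) in 5 overlapping classes of region (x axis), for autophagy genes (purple, with counts) and for all regions (grey). The purple bar is close to the grey bar over all regions (20.5% against 19.9%), and reaches 4 of 4 in regions called in all 6 libraries and 0 of 20 in regions called in 1 library.

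An AP-1 motif lay in 5 of the 39 regions (12.8%, against 18.5% of all regions). They were 2 intronic regions of *Vmp1* and 1 each of *Bnip3*, *Sqstm1* and *Tax1bp1*, and none of the 5 held an E-box. None of the 19 promoter regions held the motif, against 6.17% of all promoter regions, and 5 of the 20 farther regions did (25.0%, against 24.8%). Of the 39 regions, 3 (7.69%, against 9.44% of all regions) were called in at least 2 senescent and 0 control libraries. They lay at *Gabarapl1*, *Calcoco1* and upstream of *Uvrag*. None of the 3 held the motif, against 28.4% of all regions of that class. Upstream of *Atg5* lay the 1 region (2.56%, against 5.86% of all regions) called in at least 2 control and 0 senescent libraries. It did not hold the motif either, against 20.2% of all regions of its class. Classes of 3 regions and 1 region are too small to compare with these shares.

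Counted per peak within 100 bp of the centre, 3 of 8, 3 of 11 and 3 of 23 autophagy peaks held an E-box in the control libraries. These were 37.5%, 27.3% and 13.0%, against 30.7%, 23.9% and 13.6% of all peaks in the same lists. In the senescent libraries 5 of 11, 5 of 28 and 2 of 12 did (45.5%, 17.9% and 16.7%). Of all peaks in the same senescent lists, 40.02%, 23.3% and 33.3% did. The share of autophagy peaks was above that of all peaks in control libraries 1 and 2 and in senescent library 1. It was below that of all peaks in control library 3 and in senescent libraries 2 and 3. The counts are small, and the Wilson 95% intervals, which cover counting error only, ran from 4.54% to 32.1% in control library 3 and from 21.3% to 72.0% in senescent library 1. The means of 25.9 ± 12.3% and 26.7 ± 16.3% differed by 0.721 percentage points, less than the SD of either group. Over all peaks the means were 22.7 ± 8.63% and 32.2 ± 8.44%. This depended on the window: with an E-box anywhere in the peak, the control counts stayed at 3 each and 7, 8 and 4 senescent peaks held one. The means were then 25.9 ± 12.3% and 41.8 ± 19.0%, a difference of 15.9 percentage points, above the SD of the control and below that of the senescent group, and the libraries of the groups still overlapped. Over all peaks the same count gave 25.4 ± 8.45% and 36.6 ± 9.96%.

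The E-box content of the start sites themselves was read from the genome without use of the peaks. From 250 bp before to 50 bp after a start site, 5 of the 40 genes held CACGTG (12.5%, against 9.93% of all genes), namely *Atg14*, *Atg3*, *Atg5*, *Gabarap* and *Bnip3*. Within 1000 bp it was 16 genes (40%, against 32.2%), and 11 of these 16 had a promoter peak in at least 1 library (68.8%, against 33.5% of all genes with such an E-box). Of the 24 genes without an E-box there, 5 had a promoter peak (20.8%, against 16.1%). The count of 11 did not require the peak to cover the E-box. The promoter regions of *Atg4d*, *Map1lc3b*, *Nbr1* and *Calcoco1* held none, and all but that of *Nbr1* were called in 1 library only. *Ulk1*, *Atg2b*, *Atg5*, *Atg10* and *Atg12* held an E-box within 1000 bp and had no promoter peak by the nearest-gene rule. The longer TCACGTGA lay within 1000 bp of 4 genes, *Atg3*, *Atg10*, *Map1lc3b* and *Nbr1* (10.0%, against 2.98%), and of the regions of these genes only that at *Atg3* covered it. A match is a sequence and not evidence of binding.

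Beyond the core machinery, 58 further autophagy genes (upstream regulators, membrane and lipid proteins, receptors and fusion factors) were counted by the same rules. Of these, 28 had a peak in at least 1 library (48.3%, against 36.4% of all genes), 5 had one in all 6 (5.14% of all genes), and 0 met the group criterion in either direction (3.42% and 1.64% of all genes). Per library 12.1%, 19.0% and 34.5% had a peak in control cells, against 9.32%, 10.8% and 25.3% of all genes. In senescent cells 19.0%, 34.5% and 19.0% did, against 14.4%, 26.5% and 16.6% of all genes. *Foxo3*, a transcription factor that regulates autophagy genes, ranked 107, 104 and 73 in control and 134, 143 and 129 in senescent libraries, and its best-ranked peak held 2 E-boxes. *Tsc1*, an inhibitor of mTORC1 signalling, and *Rheb*, the GTPase that activates mTORC1, were called at their promoters in all 6 libraries, as were the kinase *Dapk1* and the autophagy inhibitor *Rubcn* at any distance. *Retreg1*, an endoplasmic reticulum receptor, was called in 5 libraries, and *Stk11*, the kinase LKB1, and *Vps33a*, of the fusion machinery, in 4 each.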

How the data were processed

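BMAL1-ChIP-seq peak lists of 3 control and 3 senescent libraries were analysed, and the 6 input libraries were not used here. The authors mapped paired reads to mm10 with BWA, removed duplicates with Picard, and called peaks per library with MACS2 at an FDR of 1%. The labels and the methods name different suppliers of the BMAL1 antibody. The score the authors deposited was read as the −log10 of the q-value, inferred because the smallest score was 2.02. It is not normalized between libraries and was used only for ranks, with tied scores sharing a mean rank.

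Groups came from the sample titles. Start sites were those of protein-coding transcripts in GENCODE M21, and sequence was read from GRCm38 (RefSeq assembly). Peaks overlapping by at least 1 bp were merged. Calls of a gene or region were counted per library without a test, beside all protein-coding genes or regions. Ranks were compared in lists cut to 2794 peaks, a gene not called being placed at the end, with an exact two-sided permutation test over 20 arrangements and Benjamini-Hochberg adjustment over all genes or regions tested. The search for the nearest start site, the motif scans and the permutation test were checked on simulated data. Every gene of the list was accounted for. Genes called in at least 2 libraries were given with the ranks of their regions. Those called in 1 library were given in a sentence and the rest by name. Of the further autophagy genes, those called in at least 4 libraries were named. The genes, lists and rules were chosen with earlier results of these data known. Python 3.11.15, NumPy 2.4.6, SciPy 1.17.1, pysam 0.24.0 and Matplotlib 3.10.9 were used.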

Additional observations from a re-analysis of the deposited data

How the results depend on the processing

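Of 119 values recomputed under another setting, 9 changed sign and 21 moved by more than the spread between replicates or, for counts, by over 1.5 times. The other 89 kept their direction, but not always their size. The exact permutation tests could not fall below p = 0.1 under any setting, so no tested value could cross the usual threshold. The difference in autophagy genes with a peak (2.33 more in senescent libraries) was -0.333 with equal peak numbers and ran from -1.33, without senescent library 2, to 5.17, without control library 3, when 1 library was left out. The number called in the senescent group alone (3) was 1 with equal peak numbers, 1 with peaks within 1000 bp and 0 when a peak counted for any start site within 1000 bp, and ran from 2 to 5 on leaving out a library (5 without control library 3). The number called in the control group alone (1) was 3 with equal peak numbers and 0 with peaks within 1000 bp, within 50000 bp, with start sites of every biotype, or for any start site within 1000 bp, and ran from 0 (without control library 2 or 3) to 4 (without senescent library 2). Autophagy genes ranked better in every senescent library (1) numbered 2 with all peaks and 3 with ranks as a percentage of the list, and ran from 1 to 3 (3 without senescent library 3). Those ranked better in every control library (1) numbered 3 with all peaks and ran from 1 to 3 (3 without control library 2). As a percentage of the list, the rank difference was -1.51 for *Uvrag* and -0.191 for *Bnip3*, and that of *Gabarap* lost its separation (exact p = 0.7, against 0.1). The difference in E-box share (0.721 percentage points) was 15.9 with an E-box anywhere in the peak, 21.7 with equal peak numbers, -2.30 within 50 bp of the centre, -7.18 for peaks above the median score and -0.539 after subtracting the flanking windows, and ran from -8.68 (without senescent library 1) to 6.50 (without control library 1), with -5.73 without control library 3. Within 500 bp of a start site, 8 autophagy genes held an E-box in place of 16. The causes were not tested. The number called in all 6 libraries stayed between 2 and 4 under every setting run.

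Samples share replicate numbers, but the deviations of same-numbered libraries from their group correlated at -0.122, 0.142 and 0.113, so the numbers were not taken to pair them. With the replicate number as a block the difference was again 2.33 genes (3, 11 and -7 by number), 1 gene ranked better in every library of each group, and the smallest p that 3 pairs allow was 0.25. The depth of the libraries is unknown, so list length limits every count.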
